A study of Homo sapiens with 2 samples.

Results

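The mRNAs of NDUFS7, UQCR11, ATP5E and PET117 encode a subunit of respiratory complex I, a subunit of complex III, a subunit of ATP synthase and an assembly factor of complex IV. They were taken by gene symbol from the 104 genes that the authors list from an RNA immunoprecipitation and sequencing (RIP-seq) experiment on SYNJ2BP, so that 4 of the 104 genes are described here and the other 100 serve as their background. SYNJ2BP is a PDZ domain protein anchored in the outer mitochondrial membrane (OMM). The RIP-seq asked which mRNAs are held by endogenous SYNJ2BP in HEK293T cells, an immortalized human embryonic kidney line. The paper's description of the RIP-seq names no treatment of the cells, and both groups come from that one line. The SYNJ2BP IP group is 1 library of RNA recovered with an antibody against SYNJ2BP, and the IgG group is 1 library of RNA recovered with a nonspecific immunoglobulin.

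Values are gene-level FPKM, fragments scaled by the authors to transcript length and to the size of each library. Levels are set side by side between genes on that scale. How fragments in stretches shared with other genes were assigned is unknown, which limits such comparisons. With 1 library per group there is no replicate spread, and no test, error or interval accompanies any value. The depth of both libraries is unknown, since the sum over a chosen list is not a library total. Every listed gene had an FPKM in the SYNJ2BP IP at least 84.8 times its FPKM in IgG, so a higher value in the SYNJ2BP IP follows from being listed. No library of RNA from before the immunoprecipitation is used here, and a high level of an mRNA in the cells and its recovery with SYNJ2BP cannot be told apart. The 104 genes include neither SYNJ2BP nor a set of markers by which the cell line could be checked.

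The respiratory chain passes electrons from NADH and succinate through complexes I to IV to oxygen and pumps protons out of the matrix, and ATP synthase uses the returning protons to make ATP. Most of these subunits, and all of the assembly factors, are encoded in the nucleus, translated outside the inner compartments of the mitochondrion and imported. Part of this translation takes place on ribosomes at the OMM, where mRNAs can also be held by RNA-binding proteins.

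Complexes I, III and IV and ATP synthase each had 1 listed gene with that complex as its own, and complex II had none. A list of 142 genes of the respiratory chain and ATP synthase (92 subunits and 50 assembly factors), written with the listed genes already known, was searched by current and older symbols. Of the 92 subunits, 3 were listed: 1 of 44 for complex I (NDUFS7), 1 of 10 for complex III (UQCR11), 1 of 20 for ATP synthase (ATP5E), and none of the 4 for complex II or the 14 for complex IV. Of the 50 assembly factors, 2 were listed, PET117 among 22 for complex IV, and RAB5IF, the 1 gene assigned to several complexes. None of the 13 subunits encoded in mitochondrial DNA was listed. The genes of these complexes that are not in the list have no value here in either library, so their ratios are unknown. What share of all measured genes is listed is also unknown, so these counts cannot be called many or few.

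NDUFS7 had the highest level of the 4 mRNAs in both libraries. It encodes a core subunit of complex I, which carries the last iron-sulfur cluster before ubiquinone. Its FPKM was 99.5 in the SYNJ2BP IP library, against 1.06 in the IgG library. It ranked 5 of 104 by FPKM in the SYNJ2BP IP, between ACYP1 with 126.7 and AK1 with 94.9, and 4 of 104 by FPKM in IgG. On the log2(FPKM + 1) scale, where 1 is added to both FPKM values, the SYNJ2BP IP exceeded IgG by 5.61, which ranked 9 of 104. The other listed genes nearest to NDUFS7 over both libraries on that scale were ZNF571, at a distance of 0.45, and AK1, at 0.73. The FPKM of ZNF571 was 134.9 in the SYNJ2BP IP library, against 1.24 with IgG, and AK1 had 94.9, against 0.241 with IgG.

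ATP5E encodes the epsilon subunit of ATP synthase, a small protein of the central stalk of its catalytic part. In the SYNJ2BP IP library its FPKM was 27.7, against 0.327 in the IgG library. It ranked 25 of 104 in the SYNJ2BP IP, between MAST2 with 29.5 and RP11-1035H13.3 with 26.8, and 16 of 104 in IgG. Its log2 difference was 4.44, ranked 32 of 104. KIAA1211, at a distance of 0.15, and RASA2, at 0.18, were the other listed genes nearest to it over both libraries. In the SYNJ2BP IP library KIAA1211 had an FPKM of 25.3, against 0.257 with IgG, and RASA2 had 24.5, against 0.28 with IgG. NDUFS7 exceeded ATP5E 3.59-fold in the SYNJ2BP IP and 3.23-fold in IgG, so the pair differed by a similar factor in both libraries.

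PET117 and UQCR11 lay lower in the SYNJ2BP IP, and their IgG values were near 0. PET117 encodes an assembly factor of cytochrome c oxidase, complex IV, and UQCR11 encodes a small subunit of the cytochrome bc1 complex, complex III. The FPKM of PET117 was 7.63 in the SYNJ2BP IP library, against 2.0e-21 in the IgG library. That of UQCR11 was 6.64 in the SYNJ2BP IP library, against 6.0e-276 in the IgG library, the lowest IgG value of the 104 genes. For scale, a single fragment mapped to a 10 kb transcript is worth an FPKM of 0.001 where 100000000 fragments were mapped. Both IgG values lie far under that level, and their size and order cannot be read as a number of fragments.

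PET117 ranked 70 of 104 in the SYNJ2BP IP, directly below ACSS1 with 7.70 and above GPR98 with 7.00. UQCR11 ranked 74 of 104, between ATP6V1G2-DDX39B with 6.78 and BROX with 6.40. The log2 difference was 3.11 for PET117, ranked 69 of 104, and 2.93 for UQCR11, ranked 74 of 104. The same genes were also the nearest over both libraries. ACSS1 lay at a distance of 0.011 and GPR98 at 0.11 from PET117. ATP6V1G2-DDX39B lay at 0.027 and BROX at 0.045 from UQCR11. With IgG near 0, these log2 differences and distances rest almost wholly on the SYNJ2BP IP FPKM and add little to its ranks. The FPKM of PET117 in the SYNJ2BP IP was 1.15 times that of UQCR11, and without replicates this order cannot be set against an error. NDUFS7 exceeded UQCR11 15.0-fold in the SYNJ2BP IP and PET117 13.0-fold.

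**Figure D1:**
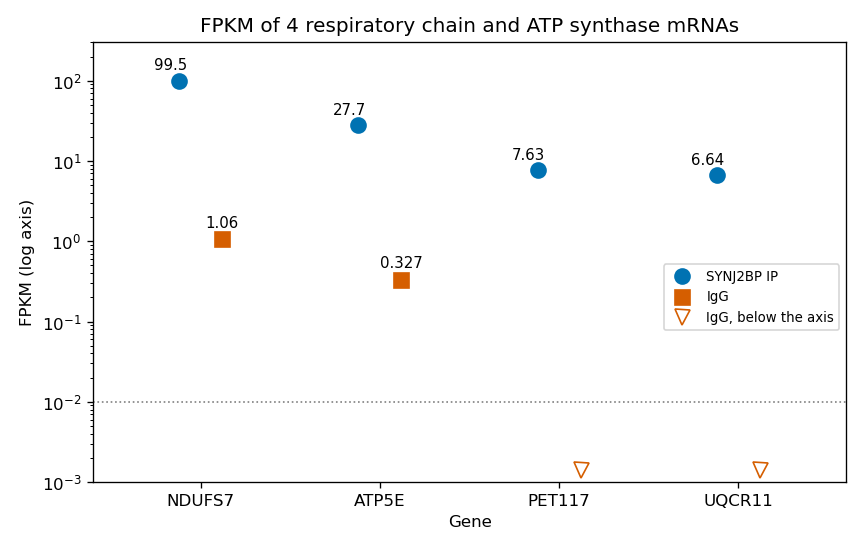
FPKM (log axis) of NDUFS7, ATP5E, PET117 and UQCR11 in the SYNJ2BP IP library (circles) and the IgG library (squares), 1 library each, with no error bars. The IgG values of PET117 and UQCR11 lie below the axis and are drawn as open triangles at its foot, and the dotted line marks an FPKM of 0.01.

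On the log2(FPKM + 1) scale, all 4 mRNAs exceeded IgG at least 4-fold in the SYNJ2BP IP, as were 83.7% of the listed genes (87 of 104), so this count does not set them apart. Their log2 differences ran from 2.93 to 5.61 with a median of 3.77, beside a median of 3.72 over all 104 genes. In the SYNJ2BP IP, the FPKM of NDUFS7 and ATP5E lay above the median of the list, 12.2, and that of PET117 and UQCR11 lay below it. In IgG, 2 of the 4 were listed under an FPKM of 0.01, beside 68 of all 104 genes (65.4%).

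**Figure D2:**
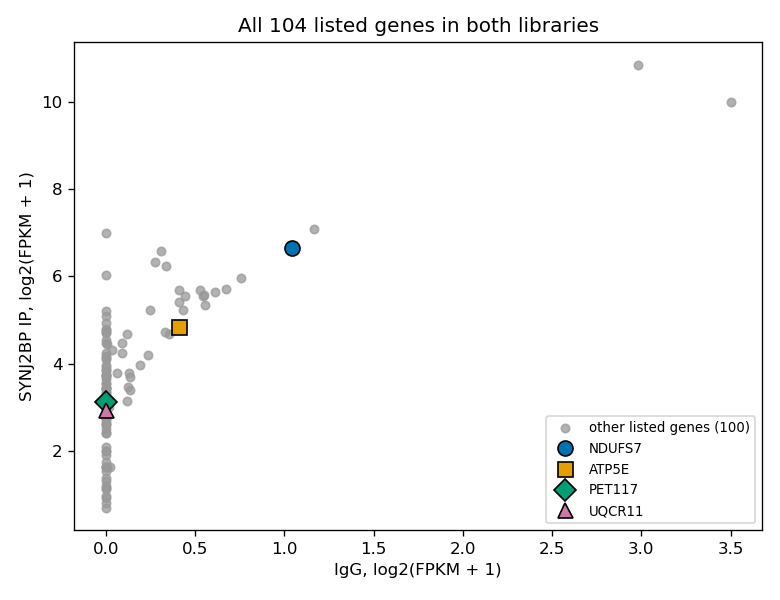
Each of the 104 listed genes by log2(FPKM + 1) in IgG (x axis) and in the SYNJ2BP IP (y axis), with the 4 respiratory chain and ATP synthase genes in colour and the other 100 in grey. PET117 and UQCR11 sit in the column of genes at 0 in IgG, while NDUFS7 and ATP5E sit among those with a readable IgG value.

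The plain ratio of FPKM was read only where IgG reached an FPKM of 0.01, which 36 of the 104 genes reached, NDUFS7 and ATP5E among them. NDUFS7 had a ratio of 94.1, ranked 29 of the 36. ATP5E had a ratio of 84.8, ranked 36 of the 36 and the lowest of all 104 genes. The next lowest ratio was 84.9, and without replicates this order cannot be set against an error. How many IgG fragments lie behind these ratios is unknown. NDUFS7 and ATP5E both lay under the median ratio of the 36, 112.5. Thus NDUFS7 ranked 9 of 104 by log2 difference with 1 added but 29 of 36 by plain ratio. The ratios of PET117 and UQCR11 carry no readable size.

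The order of the 4 mRNAs by log2 difference changed with the amount added to both FPKM values. With 1 added, NDUFS7 was highest, followed by ATP5E, PET117 and UQCR11. With 0.1 added, the 4 lay close together, at 6.43 for NDUFS7, 6.27 for PET117, 6.07 for UQCR11 and 6.03 for ATP5E. With 0.01 added, PET117 was highest at 9.58, followed by UQCR11 at 9.38, NDUFS7 at 6.54 and ATP5E at 6.36. At that setting PET117 ranked 36 of 104 and UQCR11 ranked 38, whereas NDUFS7 ranked 91 and ATP5E ranked 100. With 10 added, NDUFS7 was again highest at 3.31 and ranked 6 of 104, and UQCR11 was lowest at 0.73. Which of these mRNAs stands highest over IgG therefore depends on how IgG values near 0 are treated.

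**Figure D3:**
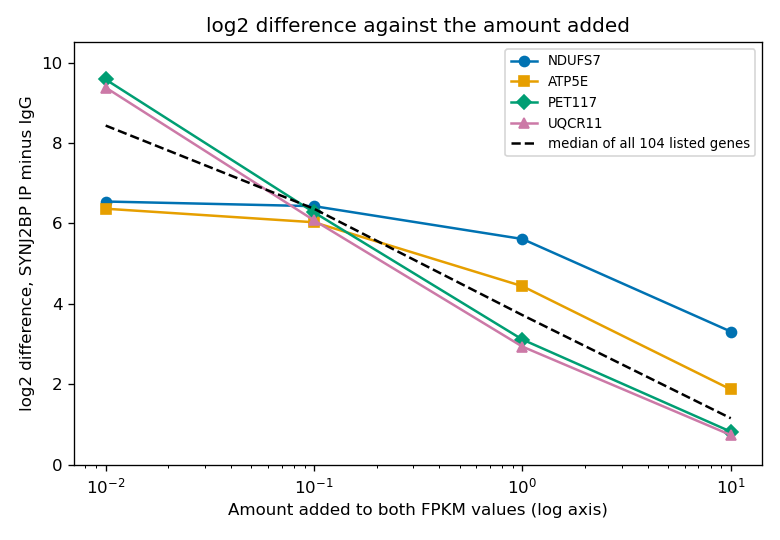
The log2 difference, SYNJ2BP IP minus IgG (y axis), against the amount added to both FPKM values (x axis, log scale) for the 4 mRNAs, with the median of all 104 listed genes as a dashed line. The lines cross near 0.1, where the 4 values run from 6.03 to 6.43, and PET117 and UQCR11 lie above NDUFS7 and ATP5E at 0.01 and below them at 1 and 10.

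The loci are given as the authors' table lists them, on hg19. NDUFS7 (ENSG00000115286) is listed on chromosome 19 from 1383525 to 1396466 and UQCR11 (ENSG00000267059) on the same chromosome from 1576638 to 1605480. PET117 (ENSG00000232838) is listed on chromosome 20 from 18118516 to 18169031 and ATP5E (ENSG00000124172) from 57594308 to 57617964. These identifiers were not checked against the symbols. The listed loci of NDUFS7 and UQCR11 lie 180171 bases apart, and each is the listed locus nearest to the other on chromosome 19. The listed locus nearest to ATP5E is that of CTSZ, which encodes the lysosomal protease cathepsin Z, 12005 bases away. The FPKM of CTSZ was 16.4 in the SYNJ2BP IP library and near 0 in the IgG library. The listed locus nearest to PET117 is that of ACSS1, 6817835 bases away.

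RefSeq annotates all 4 as protein-coding genes on GRCh38.p14, a later build used here only for names, lengths and neighbours, and calls ATP5E by the name ATP5F1E. As genes they are short. RefSeq lengths are 5307 bases for PET117, 6861 for ATP5E, 8294 for UQCR11 and 11678 for NDUFS7, beside a median of 24222 over the 92 listed genes that matched. From the shortest, PET117 ranked 10 of the 92, ATP5E ranked 16, UQCR11 ranked 18 and NDUFS7 ranked 23. These are lengths of genes with their introns, not of the mRNAs.

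For NDUFS7 the listed locus and the gene have nearly one length, 12942 and 11678 bases, a ratio of 1.11. For the other genes the listed locus is longer, 23657 bases or 3.45 times the gene for ATP5E, 28843 bases or 3.48 times for UQCR11, and 50516 bases or 9.52 times for PET117. A listed locus of at least 1.5 times the gene length was found for these 3 of the 4 and for 37 of the 92 matched genes. In RefSeq the whole of PET117, 5307 bases, lies within the bounds of KAT14, a histone acetyltransferase gene of 50883 bases, which is close to the length of the locus listed for PET117. ATP5E overlaps TUBB1, which encodes a tubulin of platelets, by 1180 bases, and the noncoding gene SLMO2-ATP5E by 3658 bases, and PRELID3B, a gene of 9642 bases, starts 809 bases after it. UQCR11 itself overlaps no other gene in RefSeq, and MBD3 ends 4303 bases before it and TCF3 starts 3829 bases after it. The gene and both gaps come to 16426 bases, fewer than the 28843 of the listed locus, so by these RefSeq lengths a locus that holds UQCR11 reaches into MBD3, TCF3 or both. NDUFS7 also overlaps none, and its nearest protein-coding neighbours are PWWP3A and GAMT. KAT14, TUBB1, SLMO2-ATP5E, PRELID3B, MBD3, TCF3, PWWP3A and GAMT are not listed under these names. The sources used here do not say how fragments in shared stretches were assigned, and the part of overlapping or neighbouring transcripts in the FPKM of PET117, ATP5E and UQCR11 was not tested.

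**Figure D4:**
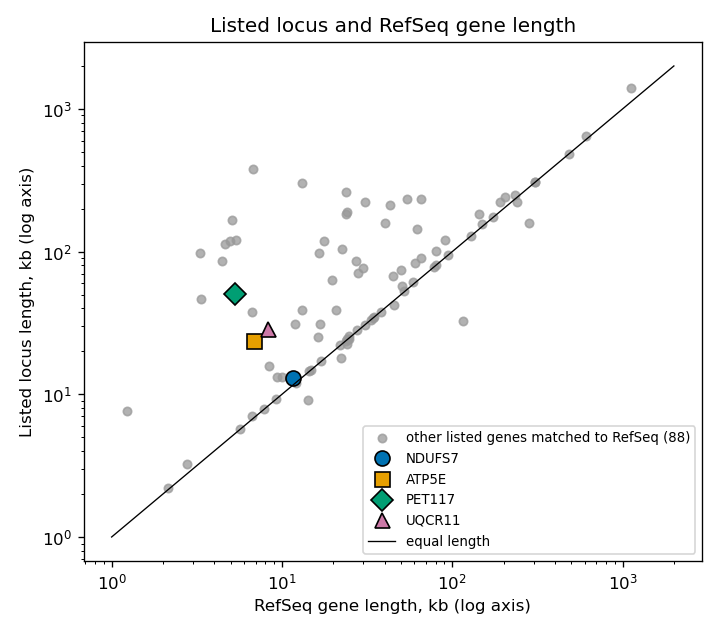
Length of the locus in the authors' table against the length of the gene in RefSeq (both in kb, log axes) for the 92 listed genes that matched by symbol, with the 4 respiratory chain and ATP synthase genes in colour. NDUFS7 lies near the line of equal length, and ATP5E, UQCR11 and PET117 lie above it, PET117 farthest at 9.52 times.

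The authors' table marks 11 of the 104 genes for follow-up by crosslinking immunoprecipitation (CLIP), and UQCR11, PET117 and ATP5E are 3 of these. NDUFS7, with an FPKM in the SYNJ2BP IP of 99.5 against 27.7, 7.63 and 6.64 for the others, is not marked. The paper reports that every marked mRNA was enriched by CLIP of SYNJ2BP, both with and without the translation inhibitor puromycin. Its negative control mRNAs were not enriched. The paper also reports less PET117 and UQCR11 mRNA at the OMM in puromycin-treated cells that lack SYNJ2BP. In that assay the marked mRNAs were examined with and without puromycin, and the reduction was seen only with it. ATP5E is not among the mRNAs that the paper names as reduced there. For NDUFS7 the paper names no CLIP assay, so its high FPKM has no such result beside it.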

How the data were processed

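The authors deposited a table of gene-level FPKM in 1 SYNJ2BP IP library and 1 IgG library for genes of their choice. Their rule of choice is unknown here. Per the labels, ribosomal RNA was depleted and stranded libraries were sequenced, and the submitters' processing notes list Cufflinks, Cuffdiff (2.2.1), HISAT2 (2.0.4), cutadapt (1.9.3) and the build hg19, without roles. The annotation and the depth are unknown. A column of other values deposited by the authors marks genes for CLIP and was read as a label. Their fold changes were not used.

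The log2 difference was taken between SYNJ2BP IP and IgG after adding 1 to each FPKM. FPKM are not counts, so no count model was fitted, and with 1 library per group nothing was tested. Adding 1 understates differences of genes with low FPKM. Plain ratios were read at an IgG FPKM of at least 0.01. Likeness between genes was the Euclidean distance over log2(FPKM + 1) in both libraries. Genes named are the 4 members, their 2 nearest genes, the next above and below in the SYNJ2BP IP, the nearest listed loci, listed genes of the respiratory list and RefSeq neighbours. Symbols were matched to RefSeq (GRCh38.p14) on the same chromosome, by current or older name, for 92 of 104 genes. The members, lists and alternatives were chosen with earlier results of these data known. Alternatives were other amounts added (0.1, 0.01 and 10, and 1 for plain ratios), fold limits of 2 and 8, a minimum SYNJ2BP IP FPKM of 1 or 5, IgG limits of 0.001, 0.1 and 1, and leaving out genes with long listed loci. Python 3.11.15, numpy 2.4.6, pandas 2.3.3 and matplotlib 3.10.9 were used, and the log2 difference was tested on simulated data, IgG values at and near 0 included.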

Additional observations from a re-analysis of the deposited data

How the results depend on the processing

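The median log2 difference of the 4 mRNAs, 3.77, was 6.17 with 0.1 added to both FPKM values, 7.96 with 0.01 and 1.34 with 10. It was 5.61 over members whose listed locus is under 1.5 times the RefSeq gene, which leaves NDUFS7 alone. It was unchanged where the SYNJ2BP IP FPKM had to reach 1 or 5, since all 4 pass these filters. The number at least 4-fold higher, 4 of 4, stayed at 4 with 0.1 or 0.01 added, at a limit of 2-fold and under both filters, but was 3 at a limit of 8-fold, without UQCR11, and 1 with 10 added, NDUFS7. Over all listed genes the count, 87 of 104, was 104 with 0.1 or 0.01 added, 23 with 10 added, 100 at 2-fold, 70 at 8-fold, and 87 and 81 with minimum SYNJ2BP IP values of 1 and 5. An IgG limit of 0.001 or 0.1 left 2 of the 4 below it, as at 0.01, and a limit of 1 left 3. A larger amount added lowers each log2 difference by construction. The plain ratio of NDUFS7, 94.1, was 93.2 with 0.01 added, 86.0 with 0.1 and 48.8 with 1, and that of ATP5E, 84.8, was 82.3, 65.2 and 21.7. No paired analysis was possible because there is 1 library per group. What depth limits was not assessed, as it is unknown.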
